A study of Mus musculus with 59 samples.

Results

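Malat1 and Neat1 are long noncoding RNAs that stay in the nucleus and are made from neighbouring genes of mouse chromosome 19. They were picked by gene symbol from a table of total RNA sequencing, and both of the 2 symbols were among its 23974 genes. Malat1 had reads in all 12 libraries analysed here. Neat1 was listed at 0 in all 12, so the values below are those of Malat1. The cells were mouse embryonic stem cells (ESCs) that came from blastocysts of the BDF1 strain, kept in serum with LIF and the small molecules CHIR99021 and PD0325901. Control cells were wild type. Zcchc8 KO cells had been knocked out for Zcchc8, the scaffold of the nuclear exosome targeting (NEXT) complex. Both genotypes got Actinomycin D, a transcription blocker, at 5 µg/ml for 0, 4 or 8 h, with 2 libraries in each of 6 groups, and ribosomal RNA was depleted. The sources used here do not say whether replicates were separate cultures or how many clones were used, so p-values measure only how far these libraries spread, which may be technical spread. The other 47 of the 59 samples were not analysed here.

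Malat1 collects in nuclear speckles, the bodies where splicing factors are stored, and is among the most abundant nuclear RNAs of many tissues. Neat1 is the scaffold of paraspeckles. A short Neat1 transcript ends in a poly(A) tail, and a long one that starts at the same place builds the paraspeckle. The ends of Malat1 and of long Neat1 are not polyadenylated. RNase P cuts them in front of a tRNA-like RNA, and U-rich stretches fold with an A-rich tail into a triple helix that shields the end from exonucleases. The NEXT complex hands nuclear transcripts to the exosome. The experiment bears on how long nuclear RNAs last with and without it.

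The mature ends are shown because they are what the pair is known to share. The stretches are the last 100 bases of Malat1 before its tRNA-like RNA, called mascRNA, and the last 100 bases of the long Neat1 transcript. Both were read on the minus strand from GENCODE M21 transcripts of build GRCm38, which is not the build the authors used, with the start of mascRNA from RefSeq on the same build. Malat1-201 has 1 exon of 6983 bases, the long Neat1-201 has 1 exon of 20771 bases, and the short Neat1-202 has 3004 bases. The Malat1 stretch lies in that exon at chr19:5795982-5796081, and the Neat1 stretch in its exon at chr19:5824708-5824807. Capitals mark every run of at least 10 bases that the stretches share.
Malat1: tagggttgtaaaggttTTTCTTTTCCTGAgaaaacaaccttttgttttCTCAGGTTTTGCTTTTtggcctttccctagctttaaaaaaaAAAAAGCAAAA
Neat1: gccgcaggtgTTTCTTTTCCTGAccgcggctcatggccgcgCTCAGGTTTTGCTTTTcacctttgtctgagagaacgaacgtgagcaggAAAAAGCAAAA

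The stretches share 3 runs in the same order, a U-rich run of 13 bases, a U-rich run of 16 bases and an A-rich run of 11 bases at the very end. Searched on the transcript strand alone, TTTCTTTTCCTGA was in the last 100 bases of 2 of 139316 GENCODE transcripts (0.00144%), CTCAGGTTTTGCTTTT in those of 1 (0.000718%) and AAAAAGCAAAA in those of 64 (0.0459%). These counts do not take in the Malat1 copies, since Malat1-201 is annotated on through mascRNA and its last 100 bases lie past the stretch shown. The runs were taken from the pair itself, so these shares only describe them.

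Neat1 gave no reads to compare. Its single row, which carries the identifier of the short transcript, had 0 reads in every library. Why the row was at 0 was not tested, so no level of the RNA is read from it. Nono, the gene of a core paraspeckle protein, was also listed at 0 throughout, as were 9 of 32 paraspeckle protein genes in all. Of the 23974 genes, 33.6% were at 0 in every library. Of the 3291 genes with 1 row and several curated RefSeq transcripts, the class Neat1 belongs to, 19.8% were. No fold change, interval or test is given for Neat1, and no ratio of Malat1 to Neat1 could be formed.

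Libraries held 465324 to 1364523 counted reads, and Malat1 had 947 to 5723 of them, 37407 in all. Zcchc8 had 45 and 24 reads in the control 0 h libraries and 15 and 3 in the KO 0 h libraries (log2 change −2.42, adjusted p = 0.0332 by limma), and 38 and 14 in KO against 45 and 32 in control at 4 h. At 8 h it had 15 and 3 in KO against 14 and 25 in control, and the normalised values overlapped (9.56 and 3.78 against 7.57 and 11.3). The difference was not called at 4 h or 8 h (adjusted p = 0.845 and 0.638 by limma), so at those times the gene's reads do not check the KO label. The KO 8 h libraries stood further apart than other pairs, with a chi-square per degree of freedom of 11.8 over genes, against 3.43 to 4.13. ESC markers had reads for 21 of 22 genes, with Esrrb at 0. Their summed share of counted reads was 0.452 to 0.5% in control and 0.38 to 0.423% in KO at 0 h, and 0.262 to 0.28% and 0.171 to 0.256% at 8 h. In such bulk samples fewer cells of a type and less RNA per cell cannot be told apart.

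Malat1 was among the most abundant RNAs of the table at every time. Values are the authors' normalised read counts. In untreated control cells it stood at 2191 and 3059, and in untreated KO cells at 3197 and 2468. The groups overlapped. After 4 h it was 1887 and 3128 in control and 3208 and 3819 in KO, and after 8 h 1804 and 2181 in control and 3176 and 2567 in KO. At these later times both KO libraries lay above both control libraries, by a narrow margin at 4 h. Per kilobase of transcript Malat1 stood at 258 to 547 normalised reads, higher than 99.1 to 99.7% of the 19322 genes with a transcript of at least 1000 bases. From the lowest to the highest library the range was 2.12-fold.

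Ordered by mean, the lowest group was control 8 h (1993 ± 267, SD, n = 2 here and below). Control 4 h (2508 ± 877), control 0 h (2625 ± 613), KO 0 h (2833 ± 515), KO 8 h (2872 ± 431) and KO 4 h (3514 ± 432) followed. Neighbours in this order overlapped, except KO 8 h and KO 4 h, and 8 of the 15 pairs of groups did not overlap. The like count was not made for other genes, so it only describes Malat1. Replicates differed by 0.25 to 0.73 log2 units, against a counting error of 0.0299 to 0.0587. The spread between libraries, more than the number of reads, thus set the precision. Control 0 h replicate 2 lay 0.48 above replicate 1 for Malat1, where the median gene lay 0.81 above.

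**Figure D1:**
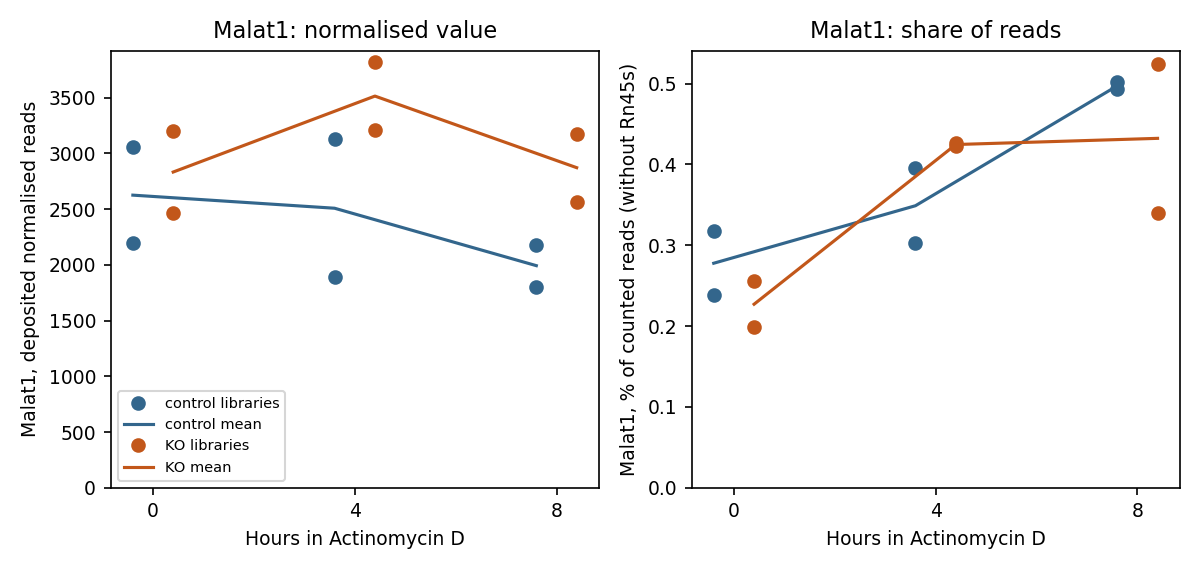
Malat1 in each of the 12 libraries by hours in Actinomycin D (x axis), as deposited normalised reads (left) and as a percentage of counted reads without the ribosomal precursor Rn45s (right); points are libraries, set apart sideways by genotype, and lines join the means of 2 libraries. On the left the libraries stay between 1804 and 3819, and on the right all 8 h libraries lie above all 0 h libraries. Such parting was not counted for other genes.

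No loss of Malat1 was called over 8 h, while the median RNA declined. On the deposited scale it stood after 8 h at 76.6% of its 0 h level in control (95% interval 46.4 to 127%) and at 102% in KO (61.5 to 168%). The median of 6952 tested genes stood at 39.8% and 45.2%. The log2 changes of Malat1 were −0.38 (SE 0.359, adjusted p = 0.356 by limma, Benjamini-Hochberg) and 0.0236 (SE 0.359, adjusted p = 0.96). Neither was called at an adjusted p of 0.05, while 53.5% of tested genes were called lower in control and 40.5% in KO. The interval in control reaches below 50%, so it does not show that the level stayed the same.

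After 4 h Malat1 stood at 93.9% in control (56.8 to 155%) and 125% in KO (75.4 to 206%), with the median gene at 71.2% and 62.6%. It was not called (adjusted p = 0.913 and 0.601 by limma), where 11.8% of genes were called lower and 0.489% higher in control, and 14.4% and 0.0288% in KO. The estimate in control changed sign without control 4 h replicate 1 (log2 change 0.27), and that over 8 h in KO without KO 0 h replicate 2 (−0.16) or KO 8 h replicate 1 (−0.13), again with no call. Without KO 8 h replicate 2, of the pair that stood apart, the change over 8 h in KO was 0.18 and the difference of KO from control at 8 h 0.68.

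Ranked by change over 8 h, Malat1 lay above 85.6% of tested genes in control and above 96.1% in KO. Among the 107 other genes with a mean of 1000 or more, 95 had a lower change than Malat1 in control and 106 in KO. Of these 108 genes, Malat1 included, 57 were called lower in control and 13 in KO, and 0 were called higher in either (0.503% and 0.0575% of all tested genes were). The ranks are a description, with no test.

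**Figure D2:**
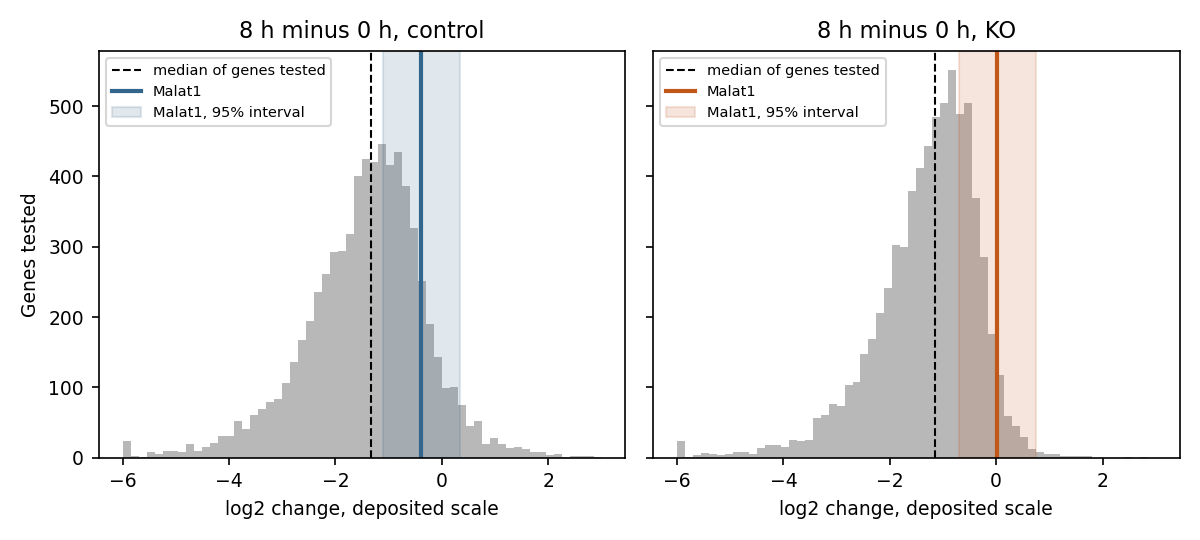
Number of tested genes (y axis) by log2 change from 0 to 8 h on the deposited scale (x axis) in control (left) and KO (right), with changes below −6 or above 3 drawn in the end bins; solid lines mark Malat1, bands its 95% interval and dashed lines the median of 6952 genes. Malat1 lies at −0.38 and 0.0236, to the right of the medians at −1.33 and −1.15.

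Since the median gene moved by over 1 log2 unit on the deposited scale, the same data were also read relative to other RNAs. With TMM scaling, under which the median change was 0.0985 in control and −0.00252 in KO, Malat1 rose 2.15-fold over 8 h in control (log2 change 1.10, SE 0.211, adjusted p = 0.00094 by limma), the opposite sign to the deposited scale. In KO it rose 2.3-fold (1.20, SE 0.211, adjusted p = 0.000934). On the TMM scale 12.3% of genes were called higher and 10.5% lower in control, and 4.98% and 5.67% in KO. After 4 h Malat1 was called higher in KO (1.11, adjusted p = 0.00246, with 4.72% of genes called higher and 4.32% lower). It was not called in control (0.55, adjusted p = 0.0893, with 6.3% and 6.36%).

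The share of counted reads needs no scaling factor. Malat1 took 0.317% and 0.238% of the reads other than Rn45s in the control 0 h libraries, 0.303% and 0.395% at 4 h, and 0.502% and 0.493% at 8 h. In KO it took 0.255% and 0.199% at 0 h, 0.422% and 0.427% at 4 h, and 0.524% and 0.340% at 8 h. All 4 libraries at 8 h lay above all 4 at 0 h. How many other genes part in this way was not counted. The widest 95% Wilson interval, that of control 8 h replicate 1, ran from 0.485 to 0.519%, and these intervals cover counting error only. Within genotypes the share was 1.84-fold higher at 8 h than at 0 h, an exact two-sided permutation test of the time labels giving p = 0.00346 (adjusted p = 0.0115 over 10 such tests of single values). In control alone the exact permutation p was 0.0444 and in KO alone 0.0889, where 0.0222 is the smallest that 6 libraries allow. The share over time was tested after the data had been seen, as were the ratios that follow.

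Ratios within a library need no scaling factor either. Malat1 gained over 8 h on 3 lists, nuclear long noncoding RNAs and the mRNAs of paraspeckle and of nuclear speckle proteins, by factors on either side of its 1.84-fold gain on counted reads other than Rn45s. For each read of the 7 other tested nuclear long noncoding RNAs there were 4.16 and 3.09 Malat1 reads in control at 0 h and 5.63 and 6.51 at 8 h. In KO there were 2.65 and 2.67 at 0 h and 4.93 and 3.37 at 8 h. The gain was 1.61-fold (exact two-sided permutation p = 0.0202, adjusted p = 0.0337), and it missed the threshold without control 8 h replicate 2 (p = 0.0574) or KO 8 h replicate 1 (p = 0.12). Against the 17 tested mRNAs of paraspeckle proteins the gain was 1.76-fold (exact permutation p = 0.00148, adjusted p = 0.00741). Against the 21 tested mRNAs of nuclear speckle proteins it was 2.26-fold (exact permutation p = 0.000494, adjusted p = 0.00494).

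The summed share of fibroblast markers, of which 25 of 28 had reads and Postn, Pdgfrb and Sparc were at 0, was higher at 8 h than at 0 h in both genotypes, as that of Malat1 was. It was 0.957 to 1.08% of counted reads in control and 1.43 to 1.86% in KO at 0 h, 1.63 to 1.71% and 2.62 to 2.86% at 4 h, and 2.62 to 2.66% and 1.88 to 2.82% at 8 h. Malat1 reads per read of the 20 tested fibroblast markers went opposite ways in the genotypes over 8 h. In control they went from 0.293 and 0.249 to 0.192 and 0.185, and in KO from 0.137 and 0.139 to 0.186 and 0.181. Averaged over the genotypes they were 0.963-fold those of 0 h (exact permutation p = 0.762, adjusted p = 0.847). Opposite changes cancel in this average, so the test does not show that Malat1 kept pace with the markers. Whether the samples held fibroblasts, and what part such cells had in the Malat1 values, was not tested.

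The 8 tested nuclear long noncoding RNAs, Malat1 included, ranged on the deposited scale from −2.09 to 0.16 log2 units over 8 h in control. There 3 of the 8 were called lower, against 53.5% of all genes, with a list median of −0.83 where all genes had −1.33. Kcnq1ot1, which silences neighbouring imprinted genes in cis, went from 124 and 181 to 30.3 and 39.3 normalised reads, and fell by 2.09 log2 units (adjusted p = 7.89e-05 by limma). Xist, the RNA of X inactivation, fell by 1.65 (adjusted p = 0.00741), and Firre, made from the X chromosome, fell by 1.63 (adjusted p = 0.0138). Tsix, antisense to Xist (−0.58), the imprinted Meg3 (−0.73) and Rian (−0.94), and Nespas, antisense to Nesp (0.16), were not called in control. In KO 0 of the 8 were called at 8 h, against 40.5% of all genes called lower, with a list median of −0.45 where all genes had −1.15. On the TMM scale 2 of the 8 were called higher and 0 lower in control, and 1 and 0 in KO. Malat1 itself was 1 of the 2 in control and was the 1 in KO. Of all genes 12.3% were called higher and 10.5% lower in control on that scale, and 4.98% and 5.67% in KO. A genotype difference of the 8 h change was called for 0 of the 8. The strand setting of the counting is unknown. Reads of any of these RNAs, Xist and Kcnq1ot1 as well as Malat1, Tsix and Nespas, may therefore include reads of genes on the opposite strand.

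**Figure D3:**
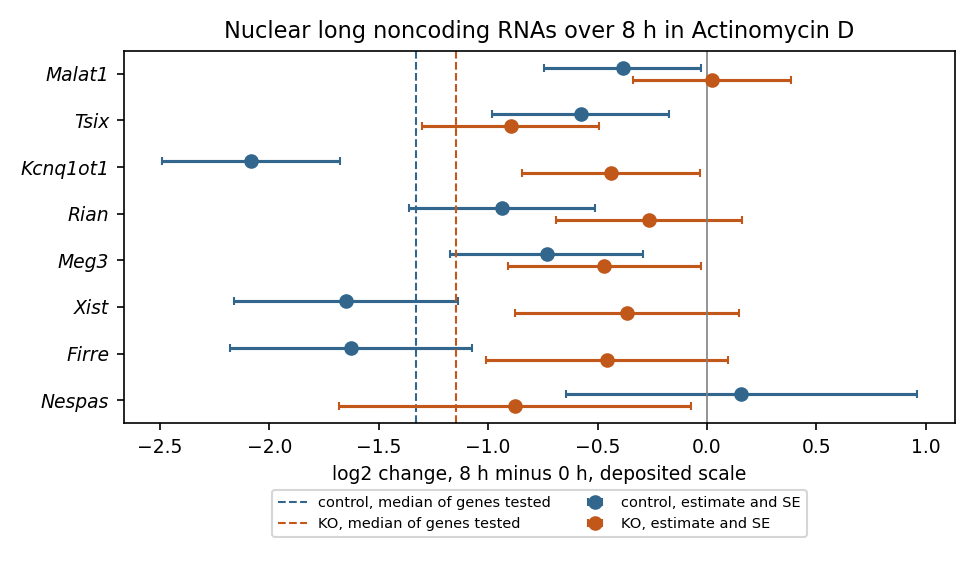
Log2 change from 0 to 8 h on the deposited scale (x axis) for the 8 tested nuclear long noncoding RNAs (y axis, highest mean value at the top) in control and KO; bars are SE of the limma fit over 12 libraries and dashed lines the median of 6952 genes in each genotype. Malat1 lies to the right of both medians, and Kcnq1ot1 is the lowest in control at −2.09.

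The effect of Zcchc8 loss on Malat1 was not called at any time. Before Actinomycin D the log2 difference, KO minus control, was 0.12 (95% interval −0.61 to 0.84, adjusted p = 0.916 by limma), where the median gene had 0.44, 4.23% of genes were called higher and 0.0719% were called lower. The 4 h value was 0.53 (−0.20 to 1.25, adjusted p = 0.715), with 0.748% of genes called higher and 0% called lower. The 8 h value was 0.53 (−0.20 to 1.25, adjusted p = 0.365), with 4.88% and 0.0144%. KO libraries lay wholly above control libraries at 4 h and at 8 h, as they did for 37% and 55.3% of tested genes. At 0 h they did so for 37.3% of genes and not for Malat1.

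Averaged over the 3 times the difference was 0.39 (−0.0283 to 0.81, SE 0.207, adjusted p = 0.174 by limma), a level 1.31-fold that of control. The median gene had 0.45, 19% of genes were called higher and 0.259% lower. Without control 0 h replicate 2 Malat1 was called (0.47, adjusted p = 0.0251 by limma). On the TMM scale the averaged difference was −0.0653 (−0.32 to 0.19, adjusted p = 0.804), which puts the KO level at 0.802 to 1.14 times that of control, with 5.72% of genes called higher and 3.04% lower. On this scale the sign also turned at 0 h (−0.28, where calls took in 1.75% of genes as higher and 0.388% as lower) and at 8 h (−0.19, with 1.41% and 0.302%). At 4 h it did not (0.27, with 0.877% and 0.23%), and Malat1 was called at none of these times.

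As a share of counted reads the KO level was 0.949 times that of control (log2 difference −0.0755, exact two-sided permutation of genotype within times, p = 0.676, adjusted p = 0.845). By time the log2 difference was −0.29 at 0 h, 0.30 at 4 h and −0.24 at 8 h, where an exact permutation test of 4 libraries cannot go below 0.333. Relative to the 7 other nuclear long noncoding RNAs, Malat1 was lower in KO, at 0.755 times control (exact permutation p = 0.00926, the smallest these labels allow, adjusted p = 0.0231). The list was chosen with earlier results of these data known. A ratio also falls where the RNAs it is set against rise, so this test cannot show that Malat1 itself fell. Of those other RNAs 3 were called higher in KO over the 3 times on the deposited scale, and the TMM scale gave 3 calls among the 8 as well, against 19% and 5.72% of all genes. On the deposited scale they were Kcnq1ot1 (1.62, adjusted p = 2.64e-06 by limma), Tsix (1.19, adjusted p = 0.000333) and Nespas (2.41, adjusted p = 0.000272).

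Relative to the fibroblast markers Malat1 was also lower in KO, at 0.72 times control (exact permutation p = 0.0185, adjusted p = 0.0337), which missed the threshold without KO 4 h replicate 1 or replicate 2 (p = 0.0741 each). At 0 h the ratios were 0.293 and 0.249 in control against 0.137 and 0.139 in KO. They were 0.177 and 0.242 against 0.148 and 0.163 at 4 h, and 0.192 and 0.185 against 0.186 and 0.181 at 8 h. The genotypes overlapped at 8 h, so the average does not describe that time. Of the 20 tested fibroblast markers 18 were called higher in KO over the 3 times on the deposited scale and 9 on the TMM scale, against 19% and 5.72% of all genes. The lower ratio thus cannot show that Malat1 itself fell. Relative to paraspeckle and nuclear speckle mRNAs Malat1 stood at 0.998 and 1.15 times control (exact permutation adjusted p = 0.972 and 0.198).

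A difference between genotypes in the 8 h change of Malat1 was not called. It was 0.41 log2 units, KO minus control (95% interval −0.62 to 1.43, SE 0.508, adjusted p = 0.946 by limma), and 0.0978 on the TMM scale (−0.52 to 0.72, adjusted p = 0.943). On each scale 0.0144% of genes were called higher and 0% lower in this comparison. The interval on the deposited scale allows a ratio of the changes of 0.652 to 2.7.

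**Figure D4:**
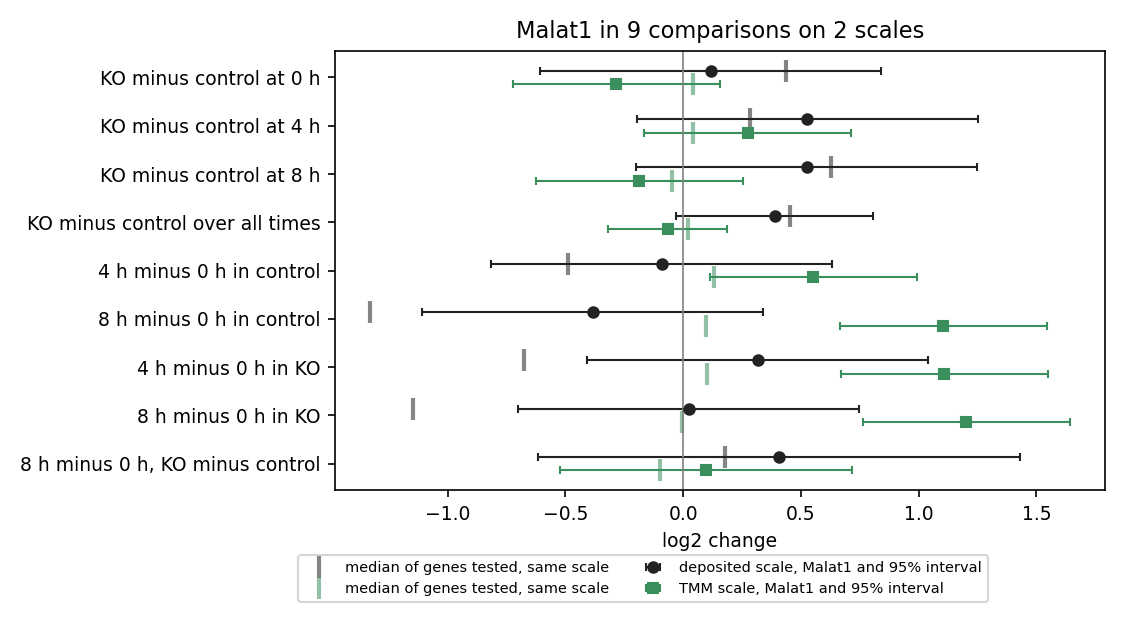
Log2 change of Malat1 (x axis) in 9 comparisons (y axis) with 95% intervals of the limma fit, on the deposited scale (circles) and after TMM scaling (squares); upright ticks are the median of 6952 tested genes on the same scale. The genotype comparisons cross 0 on both scales, and the changes over 8 h lie to the right of the median ticks on both.

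Genes for the bodies and the end processing of these RNAs were read from lists, by their members of highest mean. Of paraspeckle protein genes 17 of 32 were tested, and over 8 h 10 were called lower in control and 4 in KO, against 53.5% and 40.5% of all genes. The list medians were −1.29 and −0.64, where all genes had −1.33 and −1.15. On the TMM scale 0 of the 17 were called lower in either genotype, against 10.5% and 5.67% of all genes. Hnrnpul1, an RNA-binding protein of the hnRNP U family, went from 241 and 485 to 128 and 128 in control (log2 change −1.41, adjusted p = 0.00242 by limma) and from 433 and 339 to 247 and 254 in KO (−0.61, adjusted p = 0.182). Between genotypes, over the 3 times, 1 of the 17 was called higher and 0 lower, against 19% and 0.259% of all genes, and on the TMM scale 0 and 0 were.

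Of nuclear speckle protein genes 21 of 41 were tested. Over 8 h 21 of the 21 were called lower in control and 14 in KO, against 53.5% and 40.5% of all genes. The list medians were −1.50 and −1.21, where all genes had −1.33 and −1.15. With TMM 5 and 1 of the 21 were called lower, against 10.5% and 5.67% of all genes. Srrm2, a scaffold protein of speckles, fell by 1.12 in control (adjusted p = 0.0138 by limma) and fell by 1.12 in KO (adjusted p = 0.019) on the deposited scale. Srsf2, a splicing factor that marks speckles, had log2 changes of −1.42 and −1.22, called in both genotypes (adjusted p = 0.0019 and 0.00989 by limma).

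Of 16 genes that process or bind the ends of the pair 9 were tested, and over 8 h 6 were called lower in control and 5 in KO (on the TMM scale 1 and 0). Of all genes 53.5% and 40.5% were (on the TMM scale 10.5% and 5.67%). Rpph1, the RNA subunit of RNase P, stood at 3965 and 5372 in control and 2771 and 3493 in KO at 0 h. On the deposited scale its difference was called neither at 0 h (−0.57, adjusted p = 0.47 by limma) nor over the 3 times (−0.45, adjusted p = 0.127 by limma). Rpp25, a protein subunit of RNase P, was called higher in KO over the 3 times (0.81, adjusted p = 0.0178), as was Elac2, the RNase Z that trims tRNA ends (0.92, adjusted p = 0.00873). Those 2 of 9 compare with 19% of all genes. On the TMM scale 0 of the 9 were called higher and 1 lower, against 5.72% and 3.04%. Rpph1 alone of the 9 had a difference below 0 over the 3 times on the deposited scale. Mettl16, a methyltransferase that binds the Malat1 triple helix, had 0.79 (adjusted p = 0.0937).

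Of 18 listed genes around the pair on chromosome 19, 6 were tested. Over 8 h 4 were called lower in control and 3 in KO, and over the 3 times 3 were called higher in KO (on the TMM scale 0, 1 and 0). The shares of all genes were 53.5%, 40.5% and 19% (on the TMM scale 10.5%, 5.67% and 5.72%). Frmd8, the coding gene next to Neat1, fell by 2.12 in control and fell by 2.08 in KO (adjusted p = 0.000655 and 0.00138 by limma, deposited scale). Of 27 genes of NEXT and the nuclear exosome 16 were tested, with 1 called higher and 1 lower in KO over the 3 times, Ncbp1, a cap-binding protein (0.75, adjusted p = 0.0348), and Zcchc8 itself (−1.22, adjusted p = 0.0243). All genes had 19% called higher and 0.259% lower. With TMM 0 of the 16 were called higher, so the call of Ncbp1 was lost, and 1 was called lower.

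The genes whose pattern over the 12 libraries was most like that of Malat1 were Exoc4 (Pearson r = 0.934), Maged1 (0.933), Itgav (0.927), Eif2s3x (0.914) and Pdia3 (0.909), out of 1516 tested genes with a mean of at least 100. All genes share the libraries' scaling factors in this measure, and the median r was 0.55. Over 8 h these 5 genes had log2 changes of −0.77 to −0.35 in control and −0.37 to −0.06 in KO. This is a description of these libraries, with no test.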

How the data were processed

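Values were a normalised signal as deposited by the authors: reads per RefSeq transcript divided by 1 factor per library. Each value was a whole multiple of what 1 read is worth (100% of values within 0.001 reads), so reads were recovered. TopHat2 2.1.1, HTSeq 0.6.0, DESeq2 and build mm9 are named per the submitters' processing notes, without settings. The sources used here do not give the strand setting or what the library factors were made from. The table as used here had 0 ERCC spike-in rows.

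After 978 repeated rows were dropped, 32918 transcripts were summed by symbol. The 6952 genes with a mean of at least 10 were fitted with limma 3.58.1 (R 4.3.3) on log2(value + 1), trend and robust, as 6 group means, with Benjamini-Hochberg adjustment and calls below 0.05. Fold changes on this scale understate those of low genes. TMM used edgeR 4.0.16. DESeq2 1.42.0 and edgeR were run on recovered reads. Single values had exact two-sided permutation tests. The fit was tested on simulated data. Members and lists were chosen with earlier results of these data known. Genes named are Malat1, Neat1, Zcchc8, up to 4 tested genes of highest mean per list and the 5 most like Malat1. Nono, Meg3, Xist, Firre and Nespas were named after their values were seen. Tests planned for Neat1 could not be run. A gene that this rule takes in is not reported here.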

Additional observations from a re-analysis of the deposited data

How the results depend on the processing

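The scale decided the sign or call of most Malat1 values. With TMM, median-of-ratios scaling and DESeq2, in that order, the log2 change over 8 h was 1.10, 1.00 and 0.98 in control and 1.20, 1.18 and 1.18 in KO, and over 4 h 0.55, 0.47 and 0.46 and 1.11, 1.02 and 1.00. All of these were called except those over 4 h in control. KO minus control was −0.28, −0.32 and −0.32 at 0 h, −0.19, −0.14 and −0.12 at 8 h and −0.0653, −0.0785 and −0.0746 over the 3 times, with no call. edgeR with the deposited factors, a pseudocount of 0.5 or 5, no filter, a mean of at least 50 and a fit of the compared groups alone changed no sign or call of Malat1. The share of reads, KO minus control, was 0.30 at 4 h alone, and its 8 h change in KO alone was 0.91 (exact permutation p = 0.0889).

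Leaving out each library in turn, KO minus control ranged from −0.12 to 0.36 at 0 h, 0.16 to 0.89 at 4 h, 0.37 to 0.68 at 8 h and 0.27 to 0.51 over the 3 times. The change over 4 h ranged from −0.46 to 0.27 in control and 0.13 to 0.50 in KO, that over 8 h from −0.62 to −0.14 and −0.16 to 0.21, and the difference of the latter from 0.17 to 0.65. The log2 share ranged from −0.18 to 0.0285 between genotypes and 0.72 to 1.04 over 8 h. Ratios to nuclear long noncoding RNAs ranged from −0.50 to −0.31 and 0.55 to 0.82, to paraspeckle genes from −0.0598 to 0.0542 and 0.74 to 0.89, to speckle genes from 0.14 to 0.26 and 1.09 to 1.27, and to fibroblast markers from −0.55 to −0.40 and −0.11 to 0.00445.

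Replicates shared only a number: 15 correlations of their deviations between groups ran from −0.07 to 0.12. With the replicate block no Malat1 call changed (over the 3 times 0.39, adjusted p = 0.092 by limma), and genes called higher in KO went from 294 to 477 at 0 h and from 339 to 754 at 8 h. Genes called lower over 8 h went from 3718 to 733 in control and from 2818 to 394 in KO with TMM, and those called higher in KO over the 3 times from 1321 to 398. With 2 libraries a group and no spike-in rows used here, an absolute change of Malat1 could not be measured.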
